A study of Mus musculus with 4 samples.

Results

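The aminoacyl-tRNA synthetase genes were taken as the rows of the deposited count table whose name is an amino acid letter followed by "ars" and, optionally, 1, 2, 3, a or b. This rule found 36 genes of the 50559 in the table, and all 36 had enough reads to be tested. They were split by name into 17 genes ending in 2, which encode mitochondrial enzymes, and 19 others, which encode cytosolic enzymes. Gene names are given as the table spells them, so that Cars, Gars and Mars1 stand for the cysteinyl, glycyl and methionyl enzymes of the cytosol. Eprs, whose single protein charges both glutamate and proline tRNAs in the cytosol, is not matched by the rule and is described beside the members.

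RNA-seq was done on mouse embryonic stem cells of the E14 line, grown without feeders on gelatin with serum replacement and leukemia inhibitory factor. In the study's methods the cells carry a tdTomato reporter driven by the MERVL promoter, and siRNA was delivered with a Lipofectamine reagent at 150 nM, with collection at 48 h. There were 2 libraries from cells given a non-targeting siRNA (siNT) and 2 from cells given siRNA against Cnot1 (siCnot1), and the study compared them to learn which transcripts depend on CNOT1. The study's methods call the 2 replicates of a group independent and biological, while the labels only number them. The sources used here do not say which of the siRNAs designed against Cnot1 was sequenced.

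Each synthetase joins 1 amino acid to its tRNAs, which the ribosome then reads against the codons of an mRNA. Mitochondria translate their own genome and need a separate set of charged tRNAs, made mostly by enzymes from a further nuclear gene. Gars and Kars are exceptions, since each makes a cytosolic and a mitochondrial form, and glutaminyl-tRNA in mitochondria is made by an amidotransferase instead. Several cytosolic enzymes sit together in a multi-synthetase complex held by the scaffold proteins AIMP1, AIMP2 and EEF1E1. Many cytosolic synthetase genes are also known targets of ATF4, the transcription factor made when uncharged tRNA activates the kinase GCN2. CNOT1 holds together the subunits of CCR4-NOT, the main deadenylase, which shortens the poly(A) tails of mRNAs.

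The targeted gene was checked first. Cnot1 was at 913 and 986 normalized CPM (counts scaled to the library's effective total) in the siNT libraries and at 185 and 192 CPM in the siCnot1 libraries. The groups did not overlap, and the siCnot1 level was 19.8% of the siNT level (log2 fold change -2.33, SE 0.059, adjusted p = 2.37e-18). Here and below, the test is edgeR's quasi-likelihood test, with p-values adjusted by Benjamini-Hochberg over all 18144 genes tested, and a gene is said to rise or fall only at an adjusted p under 0.05. Library totals lay between 32135824 and 32557440 counts. Among the 6 stem cell markers checked, siNT levels ran from 218 CPM for Klf4 to 1127 CPM for Nanog, and 4 of the 6 fell, with Pou5f1 at a log2 fold change of -0.24. For comparison, 14.7% of all genes tested fell and 15.0% rose, and 38.0% of genes with a mean of 79.4 to 571 CPM fell. That range is not matched to most of these markers, since Pou5f1, Nanog, Esrrb and Zfp42 lie above it. Markers of other lineages were low. The primitive endoderm list, in which 1 of 4 genes rose, summed to 9.06 and 6.96 CPM in siNT and 13.2 and 12.1 CPM in siCnot1. The fibroblast list, in which 2 of 4 genes rose, summed to 17.0 and 20.3 CPM in siNT and 29.1 and 25.1 CPM in siCnot1. In that list Col1a2 was at 0 in siNT replicate 1. The trophectoderm list summed to 31.3 CPM in both siNT libraries and 28.5 and 24.7 CPM in siCnot1, with Krt8 lower and Elf5 below the filter. The part of these shifts in the synthetase results was not tested, and in bulk RNA fewer cells of a type cannot be told apart from less RNA per cell.

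Compared per length, cytosolic synthetase mRNAs were the more abundant set in embryonic stem cells. Levels between genes were compared as reads per kilobase of deposited exon length and library size (RPKM), using the same normalization. Kars, the lysyl enzyme, was the highest, at 268 and 265 RPKM in siNT and 214 and 228 RPKM in siCnot1. Gars, the glycyl enzyme, followed at 117 and 118 RPKM in siNT and 101 and 105 RPKM in siCnot1. Dars, the aspartyl enzyme, was at 115 and 116 RPKM in siNT and 86.6 and 87.4 RPKM in siCnot1. In siNT, Dars (115.6 ± 0.98, SD, n = 2) and Rars (115.4 ± 1.00) differed by less than their spread. In all 3 of the highest genes both siCnot1 libraries lay below both siNT libraries. Aars, the alanyl enzyme, was at 92.8 and 90.3 RPKM in siNT and 85.0 and 88.3 RPKM in siCnot1. Of its 6346 deposited exon bases, 2534 are shared on the same strand with Exosc6, which had 0 counts in all 4 libraries. How reads in shared bases were counted is not given in the sources used here, so the place of Aars in this order is uncertain.

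At the other end stood mitochondrial enzymes with long annotated exons. Wars2, the mitochondrial tryptophanyl enzyme, was at 1.34 and 1.42 RPKM in siNT and 1.22 and 1.45 RPKM in siCnot1, and its groups overlapped. Fars2, the mitochondrial phenylalanyl enzyme, was at 1.50 and 1.42 RPKM in siNT and 1.88 and 1.79 RPKM in siCnot1, without overlap. Nars2, the mitochondrial asparaginyl enzyme, was at 1.66 and 1.65 RPKM in siNT and 1.73 and 1.54 RPKM in siCnot1, with overlap. The deposited exon lengths of these 3 genes were 8196, 12531 and 15898 bases, and an annotated length above that of the transcripts in use lowers a level per length. In CPM, without the division, Wars2 was still the lowest member, at 11.3 CPM in siNT, followed by Pars2, the mitochondrial prolyl enzyme, at 17.1 CPM and Fars2 at 18.3 CPM.

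**Figure D1:**
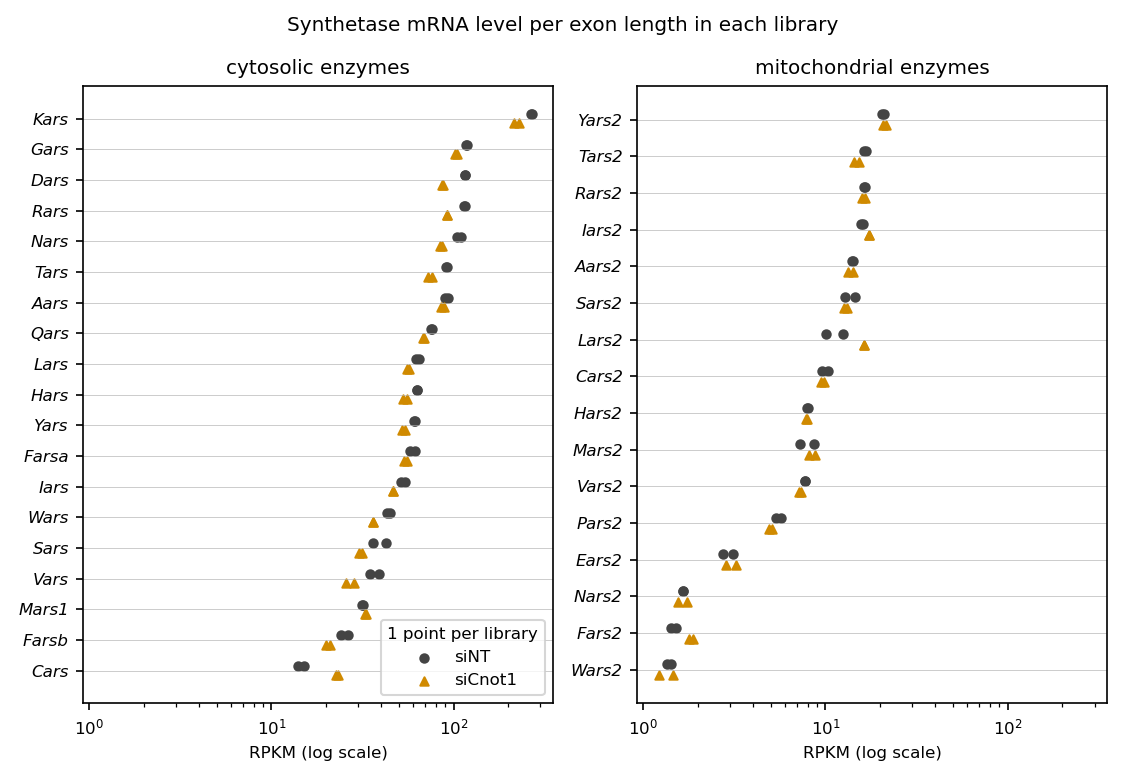
Level of each synthetase gene in RPKM on a log scale, with 1 point per library, circles for siNT and triangles for siCnot1; cytosolic enzymes are on the left and mitochondrial enzymes on the right, each ordered by siNT level. Kars stands at the top at 268 and 265 RPKM in siNT, the highest mitochondrial member drawn, Yars2, averages 20.7 RPKM, and the triangles of most cytosolic members lie to the left of their circles, except for Cars and Mars1.

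After Cnot1 depletion the cytosolic synthetases fell in most cases and by a modest amount. Of the 19 cytosolic members, 14 fell, 1 rose (Cars) and 4 did not pass the test (Qars, Farsa, Aars and Mars1). Across all genes tested, 29.7% passed the test, 14.7% lower and 15.0% higher. The median log2 fold change of the 19 was -0.21, beside 0.0084 over all 18144 genes. In 17 of the 19 both siCnot1 libraries lay below both siNT libraries, and in Cars and Mars1 both lay above, while over all genes the groups separated in this way with siCnot1 below in 31.2% and above in 32.7%. A narrower background was added after the data had been seen, as the members differ in level from most genes. Of the 2868 genes whose mean level lay in the cytosolic members' range, 79.4 to 571 CPM, 38.0% fell, 13.5% rose and the median log2 fold change was -0.10.

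The count depended on the number of libraries and on the scaling, as did the background. Leaving out siNT replicate 1, siNT replicate 2, siCnot1 replicate 1 or siCnot1 replicate 2 left 5, 8, 7 or 9 cytosolic members lower, with 4.49%, 5.82%, 6.50% or 7.61% of all genes then lower. Scaling by library totals in place of trimmed means raised the median of all genes from 0.0084 to 0.12 and left 9 cytosolic members lower and 2 higher, with 8.61% of all genes lower and a cytosolic median of -0.10. Under every scaling, filter, test and left-out library tried, 17 of the 19 cytosolic members lay below the median of all genes. The study itself called genes at a 2-fold change or more in either direction with an unadjusted p no higher than 0.05; 7.98% of all genes met this and no member did.

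**Figure D2:**
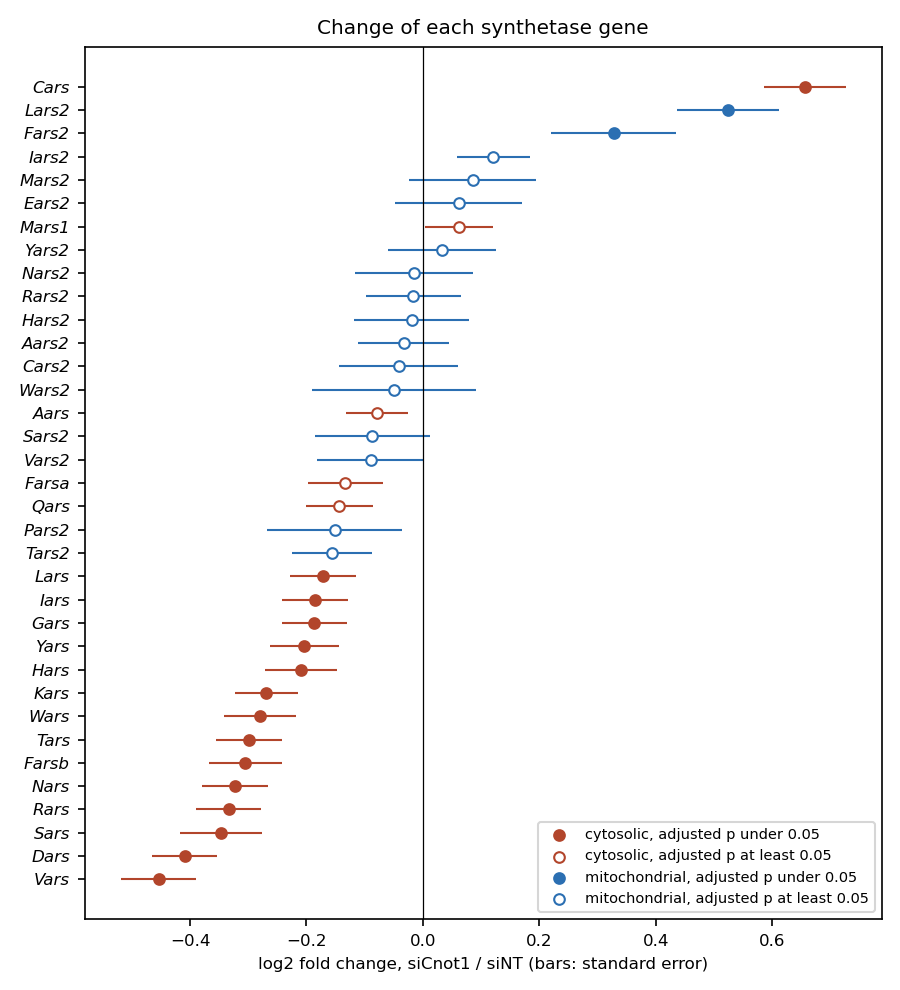
Log2 fold change of each synthetase gene in siCnot1 against siNT, ordered by size, with standard errors from the edgeR fit; red marks cytosolic and blue mitochondrial enzymes, and filled points have an adjusted p under 0.05. The 14 cytosolic members that fell lie between -0.17 and -0.45, and Cars, Lars2 and Fars2 rose. With library totals as the scaling all points shift to the right, and 9 members with open points here, Aars among them, change sign.

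Dars and Vars fell furthest among the cytosolic members. Vars, the valyl enzyme (chr17:35219883-35235305, GRCm39), was at 321 and 286 CPM in siNT and 209 and 234 CPM in siCnot1. The siCnot1 libraries lay below both siNT libraries, and the level fell by 27.0% (log2 fold change -0.45, SE 0.065, adjusted p = 1.12e-05; without siNT replicate 1, -0.37 and adjusted p = 0.0557). Dars (chr1:128291444-128345153) was at 288 and 292 CPM in siNT and 217 and 219 CPM in siCnot1. Its 2 groups were each tight and did not overlap, with a log2 fold change of -0.41 (SE 0.055, adjusted p = 5.46e-06). Among the enzymes of the multi-synthetase complex, where Dars belongs, Rars (chr11:35699207-35725355) showed the next largest fall. Rars, the arginyl enzyme, was at 255 and 258 CPM in siNT and 204 CPM in both siCnot1 libraries, again without overlap (log2 fold change -0.33, adjusted p = 7.46e-05).

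Nars and Tars, which lie outside the complex, also fell. Nars, the asparaginyl enzyme, was at 287 and 272 CPM in siNT and 221 and 226 CPM in siCnot1, with no overlap (log2 fold change -0.32, adjusted p = 1.32e-04). Tars, the threonyl enzyme (chr15:11383749-11399744), was at 241 and 242 CPM in siNT and 192 and 201 CPM in siCnot1. These groups were also separate (log2 fold change -0.30, adjusted p = 3.06e-04). Kars (chr8:112720071-112737986), a complex member and the highest gene per length, fell by 17.0% (log2 fold change -0.27, adjusted p = 5.56e-04; without siNT replicate 1, adjusted p = 0.0650).

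The other cytosolic members that fell were Sars, the seryl enzyme (-0.35), Farsb, the beta subunit of the phenylalanyl enzyme (-0.30), Wars, the tryptophanyl enzyme (-0.28), Hars, the histidyl enzyme (-0.21), Yars, the tyrosyl enzyme (-0.20), Gars (-0.19), Iars, the isoleucyl enzyme (-0.18), and Lars, the leucyl enzyme (-0.17), all as log2 fold changes. Sars had a wide siNT spread, 157 against 133 CPM, and lost its call without siNT replicate 1 (adjusted p = 0.0913) or siCnot1 replicate 1 (0.0588). Wars lost it without siNT replicate 1 (0.0686), and Farsb without siNT replicate 2 (0.0687) or siCnot1 replicate 1 (0.0510). Hars, Yars, Gars, Iars and Lars lost their calls whichever library was left out, and also with library totals, with adjusted p from 0.212 to 0.409 under that scaling. Of those that missed the test, Qars, the glutaminyl enzyme, had a log2 fold change of -0.14 (adjusted p = 0.0621), Farsa, the other phenylalanyl subunit, -0.13 (0.124), and Aars, the alanyl enzyme, -0.079 (0.292). Farsa and Farsb encode subunits of 1 enzyme, and the test of a difference between their changes was not run.

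Cars and Mars1 stood apart from the other cytosolic members. Cars (chr7:143110967-143153827), the lowest of the cytosolic genes at 61.6 ± 3.57 CPM in siNT (SD, n = 2), was at 59.1 and 64.1 CPM in siNT and 96.2 and 98.0 CPM in siCnot1. The siCnot1 libraries lay above both siNT libraries, a rise of 57.6% (log2 fold change 0.66, SE 0.070, adjusted p = 2.31e-07), and Cars rose under every alternative run with an adjusted p threshold. Mars1 was at 149 and 147 CPM in siNT and 154 and 156 CPM in siCnot1. Its libraries did not overlap, but the log2 fold change was 0.062 (adjusted p = 0.473), and it passed the test only with library totals (0.17, adjusted p = 0.0279). Mars1 shares 1100 exon bases on the opposite strand with Ddit3, which was at 5.69 to 6.87 CPM per library. The libraries were made with a method that marks strand, but whether the counting used strand is not given in the sources used here.

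The mitochondrial synthetases showed no common direction. Of the 17, 2 rose (Lars2 and Fars2), 1 fell and 14 did not pass the test, against 15.0% of all genes that rose and 14.7% that fell. Within the mitochondrial members' range of mean level, 11.1 to 106 CPM, 17.0% of 6982 genes rose and 17.6% fell. Their median log2 fold change was -0.019, turning to 0.088 with library totals, under which the median of all genes was 0.12. In 10 of the 17 the libraries of the 2 groups overlapped, in 4 both siCnot1 libraries were below and in 3 both were above. Over all genes both siCnot1 libraries were below in 31.2% and above in 32.7%. Standard errors on the log2 scale were larger for these less abundant genes, 0.062 to 0.14 beside 0.053 to 0.070 in the cytosolic set, so a change of the size seen in the cytosolic set was harder to detect.

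Lars2 (chr9:123195992-123291740), the mitochondrial leucyl enzyme, was at 55.5 and 44.9 CPM in siNT and 72.1 and 72.4 CPM in siCnot1. Both siCnot1 libraries lay above the siNT libraries, which differed from each other by more than the siCnot1 libraries did (log2 fold change 0.52, SE 0.087, adjusted p = 7.11e-05). Fars2 (chr13:36301373-36721569) was at 18.8 and 17.8 CPM in siNT and 23.5 and 22.4 CPM in siCnot1, without overlap (log2 fold change 0.33, SE 0.11, adjusted p = 0.0229). The Fars2 call was not firm: it was lost whichever library was left out (adjusted p from 0.0994 to 0.191), with DESeq2 (0.0587) and with no filter on low counts (0.0887).

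The remaining mitochondrial members had log2 fold changes between -0.16 for Tars2, the threonyl enzyme (adjusted p = 0.0952), and 0.12 for Iars2, the isoleucyl enzyme (adjusted p = 0.154). Iars2 was at 104 and 100.2 CPM in siNT and 111 CPM in both siCnot1 libraries, without overlap, and passed the test with library totals (0.23, adjusted p = 0.00665). Its exons overlap 445 bases of Rab3gap2 on the opposite strand, and Rab3gap2 fell (log2 fold change -0.55, adjusted p = 5.47e-06). Yars2, Rars2, Nars2, Hars2 and Aars2, the tyrosyl, arginyl, asparaginyl, histidyl and alanyl enzymes, had log2 fold changes within 0.033 of 0 in either direction, with adjusted p from 0.800 to 0.935.

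The 2 compartments were also compared by their summed levels. The summed level of the 19 cytosolic members was 4609 and 4545 CPM in siNT and 3868 and 3999 CPM in siCnot1, a change of -14.1%. The summed level of the 17 mitochondrial members was 696 and 687 CPM in siNT and 695 and 690 CPM in siCnot1, a difference of 0.154%. With library totals as the scaling, an alternative for these sums added after the data had been seen, the changes were -7.47% and 7.85%. The siNT libraries had ratios of the cytosolic to the mitochondrial sum of 6.63 and 6.62, and the siCnot1 libraries had lower ones, 5.57 and 5.80; this ratio within a library does not depend on the scaling. No test was run on this ratio, since the genes were chosen with earlier results known.

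The same comparison was made for each amino acid charged by a separate enzyme in each compartment, which gave 15 pairs with values reported here, Fars2 being paired with both Farsa and Farsb. In siNT the cytosolic gene had the higher level per length in all 15 pairs, by 1.46 to 66.5 times, the extremes being Cars against Cars2 and Nars against Nars2. The cytosolic log2 fold change was the lower of the pair in 14 of 15, with a median difference of -0.26. The Lars to Lars2 ratio went from 4.95 and 6.39 in siNT to 3.40 and 3.51 in siCnot1, the widest fall, from a cytosolic gene that fell and a mitochondrial gene that rose. The Cars to Cars2 ratio went the other way, from 1.46 and 1.47 to 2.39 and 2.36. The ratios of the 2 groups overlapped for the alanyl and methionyl pairs and were lower in siCnot1, without overlap, in 12 pairs.

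**Figure D3:**
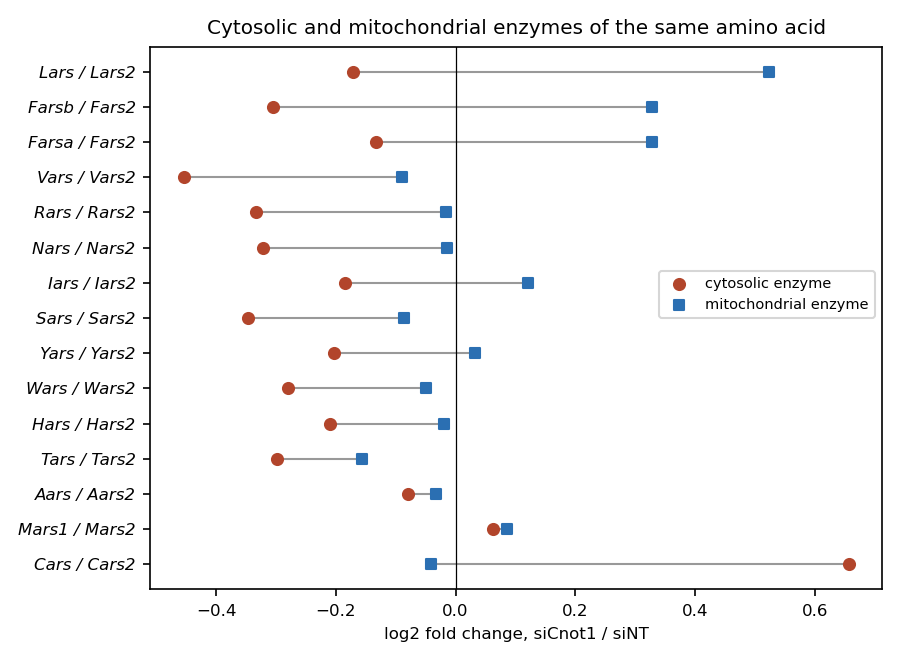
Log2 fold change in siCnot1 against siNT for the cytosolic (red circle) and mitochondrial (blue square) enzyme of each amino acid, joined by a line, in order of the difference; the gap within a pair does not depend on the scaling. In 14 of 15 pairs the circle lies to the left of the square, and in the cysteinyl pair the circle lies far to the right at 0.66.

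Change and level went together across the members. Over the 36 genes the log2 fold change had a Pearson correlation of -0.45 and a Spearman correlation of -0.61 with log2 mean CPM. Within the 19 cytosolic genes these were -0.40 and -0.25, and within the 17 mitochondrial genes -0.013 and -0.076. The points share the same 4 libraries, so these values describe the genes and are not tests. Transcripts of the 2 sets also differed in the GENCODE M21 annotation of GRCm38: the median 3′ UTR was 253 bases in the cytosolic and 722 bases in the mitochondrial set, and the median coding length 1980 and 1656 bases. The part of level and length in the compartment difference was not tested.

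**Figure D4:**
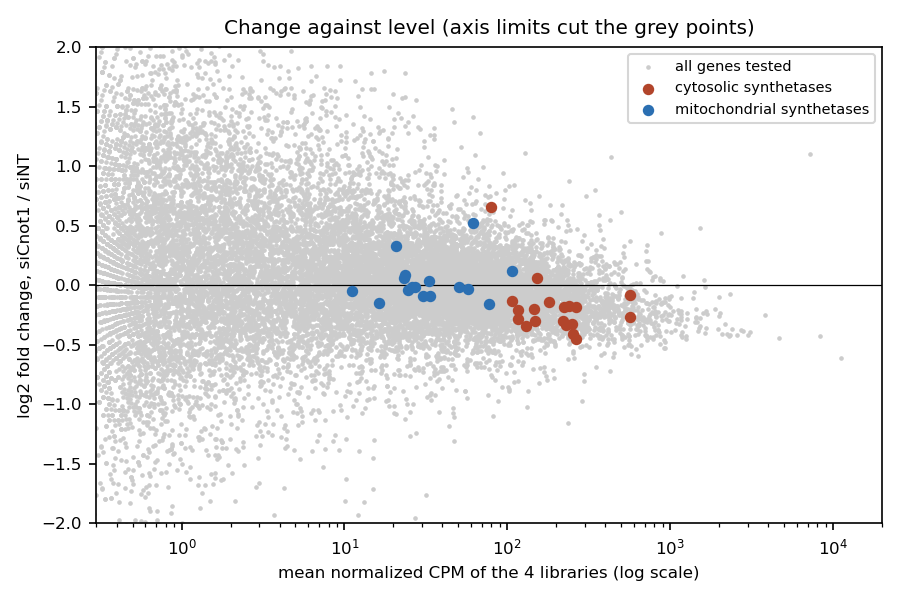
Log2 fold change in siCnot1 against siNT (vertical axis) over the mean CPM of the 4 libraries (horizontal log axis) for all genes tested (grey), cytosolic synthetases (red) and mitochondrial synthetases (blue); grey points beyond the axis limits are not drawn. Cytosolic members occupy 79.4 to 571 CPM and lie mostly below 0 with the surrounding genes, whose median there is -0.10; Cars is the red point well above 0. Library totals as the scaling would move the points up, with the median of all genes at 0.12.

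The cytosolic members were next divided by membership of the multi-synthetase complex. Of the 7 that belong to it (Dars, Iars, Kars, Lars, Mars1, Qars and Rars), 5 fell and none rose, with a median log2 fold change of -0.18. Of the 12 outside it, 9 fell and 1 rose, with a median of -0.24. Over all genes 14.7% fell, and 38.0% of those in the cytosolic members' range of level. The other parts of the complex fell as well. Eprs was at 560.5 and 581 CPM in siNT and 495 and 497 CPM in siCnot1, without overlap (log2 fold change -0.20, SE 0.053, adjusted p = 0.00554). The scaffold genes Eef1e1 (-0.36, adjusted p = 3.15e-04), Aimp2 (-0.25, 0.0318) and Aimp1 (-0.20, 0.0199) fell, so that all 4 of this list passed. The calls of Eprs, Aimp1 and Aimp2 were lost with library totals and whichever library was left out, and that of Aimp2 also with the replicate number as a block (adjusted p = 0.0536). Eef1e1 lost its call without siNT replicate 1 (0.0823) or siNT replicate 2 (0.0522).

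Of the 10 cytosolic members listed as known ATF4 targets, 7 fell and 1 rose, with a median log2 fold change of -0.20. Of the other 9, 7 fell and none rose, with a median of -0.27. Among genes in the cytosolic members' range of level 38.0% fell and 13.5% rose, and over all genes 14.7% and 15.0%. The ATF4-listed members were Aars, Cars, Gars, Iars, Mars1, Nars, Sars, Tars, Wars and Yars. Their promoters were searched for the letters TGATGNAA, the core of the response element that ATF4 dimers bind, on both strands. RefSeq promoter sequences (GRCm38.p6, 250 bases before to 50 after the start) were matched for 26 of the 36 members, 12 of them cytosolic. The letters were found in 5 of these 12, in none of the 14 mitochondrial promoters and in 4.51% of the promoters of 27025 genes. The listed Mars1 and Sars had a promoter sequence without a match, and Cars, Nars and Wars had no sequence to search. At least 1 match is shown for each of the 5 genes, Aars, Gars, Iars, Tars and Yars, to let their letters be compared. Each line gives 30 bases on the strand of the gene, 5′ to 3′, with the match in capitals, which reads TTNCATCA where it lies on the other strand.
Aars, chr8:111033840-111033869: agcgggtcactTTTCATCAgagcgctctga
Gars, chr6:55037960-55037989: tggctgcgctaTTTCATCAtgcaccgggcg
Iars, chr13:49682126-49682155: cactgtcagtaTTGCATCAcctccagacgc
Tars, chr15:11399655-11399684: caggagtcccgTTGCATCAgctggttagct
Yars, chr4:129189895-129189924: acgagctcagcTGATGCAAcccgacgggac

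The matched letters are the same in the Iars and Tars windows, and Yars carries them on the opposite strand. Of the 5 genes with a match, Gars, Iars, Tars and Yars fell and Aars had a log2 fold change of -0.079 (adjusted p = 0.292). A match describes letters in a window and not a bound site.

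The genes that sense uncharged tRNA, and other ATF4 targets, did not move as a group. Atf4 itself was at 53.9 and 52.3 CPM in siNT and 64.0 and 68.1 CPM in siCnot1, and rose without overlap (log2 fold change 0.31, adjusted p = 0.00313; 0.0725, 0.0800 and 0.108 without siNT replicate 1, siNT replicate 2 or siCnot1 replicate 2). Of the 8 genes of amino acid sensing, 1 rose and 2 fell, beside 15.0% and 14.7% of all genes. Those that fell were Eif2s1, the alpha subunit of the initiation factor that GCN2 phosphorylates (-0.37, adjusted p = 1.70e-05), and Impact, an inhibitor of GCN2 (-0.17, 0.0306), which lost its call with the replicate block (0.0578) and whichever library was left out. Of the 12 other ATF4 targets, 3 rose, 1 fell and 8 did not pass, again beside 15.0% and 14.7% of all genes. Lists of 8 and 12 genes are too short to tell such shares from those of all genes. Those that rose were Sesn2, an inhibitor of mTORC1 signalling (0.31, adjusted p = 0.00109), Cth, an enzyme of cysteine synthesis (0.27, 0.00554), and Atf3, a transcription factor at 1.09 to 2.78 CPM (1.10, 0.0122). Each of these 3 lost its call without siNT replicate 1, siNT replicate 2 or siCnot1 replicate 2, and Atf3 also without siCnot1 replicate 1 (0.134). Ddit4, another mTORC1 inhibitor, was called lower (-0.51, adjusted p = 0.00729), but its siNT libraries were at 106 and 60.1 CPM, and without siNT replicate 1 the log2 fold change was -0.053.

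Of 10 amino acid transporters listed, 5 rose, none fell and 5 did not pass, beside 15.0% and 14.7% of all genes. In 7 of the 10 both siCnot1 libraries lay above both siNT libraries, beside 32.7% of all genes. Slc7a1, a carrier of cationic amino acids, was at 127 and 139 CPM in siNT and 169 and 179 CPM in siCnot1 (log2 fold change 0.39, adjusted p = 4.87e-05). Slc3a2 (0.25, adjusted p = 0.00158) and Slc7a5 (0.19, 0.0141), the chains of a carrier of large neutral amino acids, rose, as did Slc1a5, a glutamine carrier (0.29, 0.00407). The fifth was Slc38a1, named here after its values were seen, which lost its call with the replicate block (adjusted p = 0.0616). Slc7a5, Slc1a5 and Slc38a1 lost their calls whichever library was left out, and Slc3a2 without siNT replicate 1 (0.0681) or siCnot1 replicate 1 (0.0506). Without siNT replicate 1 none of the 10 genes of the pathway lists that rose kept an adjusted p under 0.05.

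Genes that act next to the synthetases were mixed. Of the 6 carriers of charged tRNA, 4 fell, beside 14.7% of all genes and 38.0% of genes in the cytosolic members' range of level. That range is not matched to most of this list, since Eef1a1, Eef1b2 and Eef1g lie above it and Tsfm below it. Eef1a1, which brings aminoacyl-tRNA to the ribosome, was at 13626 and 13661 CPM in siNT and 8775 and 9050 CPM in siCnot1, a log2 fold change of -0.61 (adjusted p = 3.07e-09). Its exchange factor subunits Eef1b2 (-0.44, adjusted p = 1.47e-06), Eef1d (-0.27, 0.00242) and Eef1g (-0.20, 0.00553) also fell, and the mitochondrial factors Tufm and Tsfm did not pass. Eef1d and Eef1g lost their calls without siNT replicate 1 (0.168 and 0.122) or siCnot1 replicate 1 (0.127 and 0.123) and with library totals (0.0510 and 0.151), and Eef1g also without siNT replicate 2 (0.0715). None of the 4 genes for mitochondrial charging without a synthetase (Qrsl1, Gatb, Gatc and Mtfmt) passed, with adjusted p from 0.360 to 0.998. In selenocysteine charging 2 of 4 fell, beside 14.7% of all genes: Eefsec (-0.38, adjusted p = 0.00739) and Pstk (-0.39, 0.0144), both lost with library totals (0.0508 and 0.0783), Eefsec with any library left out and Pstk with any but siCnot1 replicate 1. Of 4 editing and synthetase-like factors, Dtd1, which removes D-amino acids from tRNA, rose (0.72, adjusted p = 0.00400; 0.0526, 0.109 and 0.0784 without siNT replicate 1, siNT replicate 2 or siCnot1 replicate 1), and Aarsd1, an alanyl-tRNA editing factor, fell (-0.20, 0.0440; 0.0728 with the replicate block, and lost with any library left out).

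**Figure D5:**
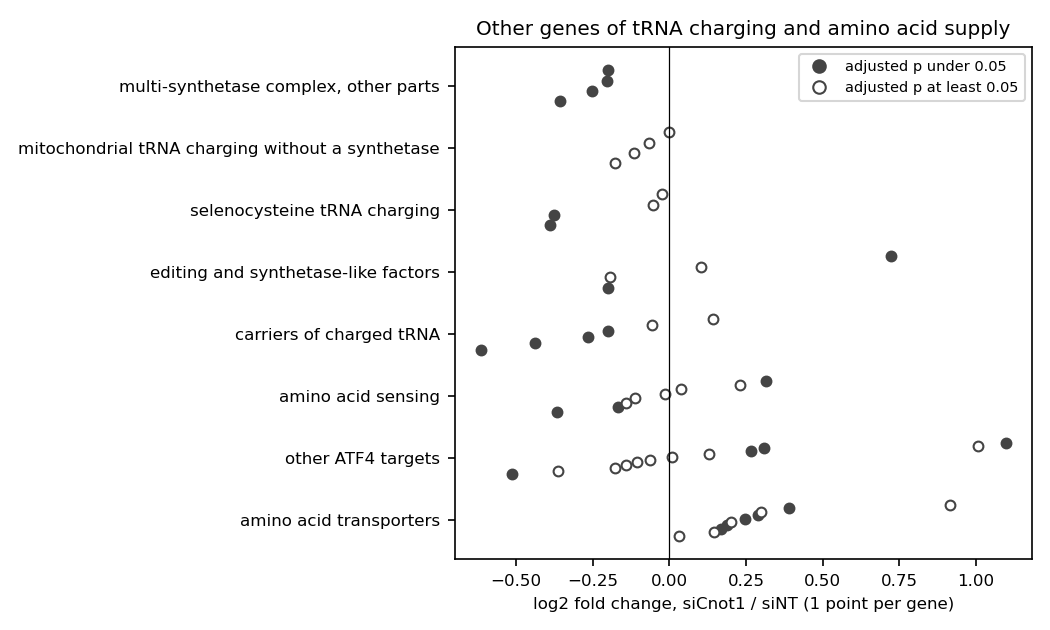
Log2 fold change in siCnot1 against siNT of each gene in the 8 other lists, with 1 point per gene, filled where the adjusted p is under 0.05. All 4 other parts of the multi-synthetase complex are filled and lie left of 0. The 4 genes of selenocysteine charging also lie left of 0, with 2 filled. All 10 amino acid transporters lie right of 0 with 5 filled, and the remaining lists spread over both sides. With library totals as the scaling the points shift to the right, with the median of all genes at 0.12.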

How the data were processed

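The authors deposited a table of raw counts per gene with exon positions and length for 4 libraries of poly(A) RNA (paired-end, dUTP). The submitters' processing notes list fastp 0.19.4, HISAT2 2.2.1, DESeq2 1.40.2 and mm10. Most positions did not match that build: of 37797 genes matched by name, 606 had both ends within 100 bases of GENCODE M21 on GRCm38. The positions were read as GRCm39, though no GRCm39 annotation was compared here. The counting tool and its strand setting are not given in the sources used here. Counts were analysed in R 4.3.3 with edgeR 4.0.16 (trimmed mean scaling, filterByExpr with a minimum count of 10, quasi-likelihood test on condition), after a test on simulated data. DESeq2 1.42.0 and limma-voom (limma 3.58.1) were alternatives. Members and lists were chosen with earlier results of these data known. Values per library were set out for the 6 members with the smallest adjusted p in each direction, the 3 highest and 3 lowest per length, Cnot1 and Eprs, and at most 4 genes of each other list, by smallest p. The values of 1 mitochondrial member and 1 promoter window are not reported here; that member counts in sums, medians and counts of the set but not among the pairs or figures.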

Additional observations from a re-analysis of the deposited data

How the results depend on the processing

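The calls of the 36 members did not change with DESeq2 size factors, upper-quartile scaling, a filter of 1 CPM in 2 libraries, limma-voom or the replicate number as a block (15 lower and 3 higher, with 11 lower and 9 higher of the listed pathway genes in place of 14 and 10). Deviations of same-numbered libraries correlated at 0.011, so the numbers share only a name. Cytosolic members lower numbered 14, and 9 with library totals, 8 without a filter on low counts, 5 to 9 with 1 library left out and 0 at the study's cut. Cytosolic members higher numbered 1, and 2 with library totals and 0 at the study's cut. Mitochondrial members higher numbered 2, and 1 with no filter, with DESeq2 and with any library left out, and 0 at the study's cut; the 1 lower became 0 there. Listed pathway genes lower numbered 5 with library totals, 6 with no filter, 3 to 6 with 1 library left out and 0 at the study's cut, and those higher 5 with no filter, 0 to 5 with 1 library left out and 2 at the study's cut. The cytosolic median was -0.10 with library totals and -0.19 to -0.25 with 1 library left out, and the mitochondrial median 0.088 with library totals. Over all genes, library totals gave 3999 higher and 1563 lower, 71.9% higher among those called, beside 50.5% with 2719 and 2668; with no filter the counts were 1303 and 1450 of 30308. The cause of these shifts was not tested.

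Of members that did not pass, 12 changed sign somewhere. With library totals Hars2 moved to 0.088, Aars2 to 0.074, Vars2 to 0.017, Aars to 0.028, Cars2 to 0.066, Nars2 to 0.092, Sars2 to 0.020, Rars2 to 0.091 and Wars2 to 0.056. With upper-quartile scaling Hars2 was at 1.29e-04, Nars2 at 0.0043 and Rars2 at 0.0030. With 1 library left out, values ran from -0.079 to 0.0024 for Aars2, -0.0052 to 0.060 for Yars2, -0.10 to 0.015 for Cars2, -0.040 to 0.15 for Ears2, -0.10 to 0.059 for Nars2, -0.18 to 0.0023 for Sars2, -0.047 to 0.0045 for Rars2, -0.19 to 0.066 for Wars2 and -0.035 to 0.21 for Mars2.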

Other observations

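Aminoacyl-tRNA synthetases fall into 2 unrelated structural classes, and the members were also divided in this way. All 10 cytosolic members of class II lay below 0 (Aars at -0.079, which turned to 0.028 with library totals), and 8 of them fell, with a median log2 fold change of -0.28. Of the 9 cytosolic members of class I, 6 fell and Cars rose, with a median of -0.18. Over all genes 14.7% fell and 15.0% rose, and in the cytosolic members' range of level 38.0% fell and 13.5% rose. In the mitochondrial set 1 of 9 class I members (Lars2) rose, and so did 1 of 8 class II members (Fars2). Of genes in the mitochondrial members' range of level, 17.0% rose. The summed level of mitochondrial class I members was 354 and 349 CPM in siNT and 380 and 384 CPM in siCnot1, and that of class II members 341 and 338 CPM in siNT and 315 and 305 CPM in siCnot1. The 2 sums moved by 8.62% and -8.62%, and no test of the class difference was run. Neither sum describes its class as a whole, since the libraries of the 2 groups overlapped in 6 of 9 and 4 of 8 members. In class I, Lars2 went from a mean of 50.2 to 72.2 CPM, and 4 of the 9 members lay below 0. In class II, Tars2 went from 81.9 to 73.5 CPM, while Fars2 rose.

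Tarsl2, a further threonyl enzyme whose name the rule does not match, was at 19.4 and 17.7 CPM in siNT and 16.7 and 17.6 CPM in siCnot1, with a log2 fold change of -0.11 (adjusted p = 0.518).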
